A study of Mus musculus with 2 samples.

Results

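The clustered histone genes are the genes whose symbols begin with Hist1h, Hist2h, Hist3h or Hist4h. This naming rule fits 69 of the 27998 mouse genes counted by the authors, under 68 symbols, since Hist2h2bb was listed under 2 identifiers. They comprised 6 genes of linker histone H1, 19 of H2A, 19 of H2B, 12 of H3 and 13 of H4. By locus, 55 carried a Hist1 symbol, 11 a Hist2, 2 a Hist3 and 1 a Hist4. They were counted in 2 single-cell RNA libraries, each from 1 glioblastoma of the NPCTKO model in a C57BL/6 mouse aged 3 months, called tumour 1 and tumour 2. In that model, neocortical progenitors of the embryo were electroporated in utero with a piggyBac transposon bearing Cas9, luciferase, guides against tumour suppressors (Trp53 and Nf1 among them) and an EGFP or DsRed label. The same guides were used for both tumours, and no unedited tumour served as control. Tags from the 3′ ends of transcripts do not read the edited sites, so the knockouts were not checked from expression. The hosts carried a tdTomato reporter switched on by Tek-Cre (endothelial cells and TAMs) or by Tbx18CreERT2/+ (mural cells), 1 tumour each in the study, and the labels leave it unstated which line was the source of which library. Host, tumour and library therefore cannot be told apart.

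Histones package DNA: H2A, H2B, H3 and H4 form the protein core of the nucleosome, and H1 binds the linker DNA where it enters and leaves. Most clustered histone genes are replication-dependent, which means that they are transcribed mainly while DNA is copied in S phase and supply histones for the new chromatin. Their messages usually end in a conserved stem-loop rather than a poly(A) tail, and the stem-loop binding protein Slbp attends their processing, translation and decay. Some members can also be made as polyadenylated messages, which differentiated cells use. The libraries were primed on poly(A), so a level here is a count of captured messages and not of all histone message. Whether each captured message bore a poly(A) tail was not examined. How much of each member's message was missed was not tested.

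Cells were sorted into classes by raw marker counts, without clustering. Glioma cells were gated on EGFP, T cells on Cd3 genes and Cd2, TAMs (tumour-associated macrophages and microglia) on C1q genes, Csf1r and others, oligodendrocytes on Mag, Mog and other myelin genes, and vascular cells on endothelial or mural markers. A cell was called cycling when it held at least 1 UMI (unique molecular identifier, by which copies of 1 captured transcript are counted as 1) of Mki67 and at least 1 of Top2a, and non-cycling when it held 0 of both. This gave 1474 cycling and 2837 non-cycling glioma cells in tumour 1, and 692 and 1889 in tumour 2. T cells numbered 84 cycling and 112 non-cycling in tumour 1, and 149 and 242 in tumour 2. Non-cycling TAMs numbered 527 and 596, oligodendrocytes 137 and 70, and vascular cells 41 and 25. The glioma markers Sox2, Olig2, Olig1, Pdpn and Nes summed to medians of 17.8 and 15.0 UMIs per 10,000 in non-cycling glioma cells, against 1.86 and 1.82 in T cells. Non-cycling T cells were shallower, with median totals of 7795 and 6588 UMIs against 15784 and 14181 in non-cycling glioma cells. Levels are given throughout as UMIs per 10,000 UMIs of all mouse genes, in the order tumour 1 and then tumour 2. Bracketed ranges are exact 95% intervals that cover counting error only.

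The groups below were chosen by measured values, namely the ratio of each member's level in cycling glioma cells to that in non-cycling glioma cells. Cycling-tied members had a ratio of at least 4 in both tumours, and resting-seen members a ratio below 2 in both, each with at least 20 UMIs. There were 32 cycling-tied, 7 resting-seen and 14 intermediate members, and 16 had too few UMIs to place. Since this ratio made the groups, the differences between cycling and non-cycling cells below are descriptions and carry no test. The ends of the transcripts are shown first, because the libraries were primed on poly(A). Whether the annotated ends bear on the counts was not tested. In the GRCm38 annotation, a stem-loop (a perfect stem of 6 bases that begins with GG, around a loop of 4 bases) lay in the 3′ UTR of 44 of the 52 members with an annotated 3′ UTR. Capitals mark stem and loop, each line is read 5′ to 3′ on the gene's strand, and the genes are 3 cycling-tied, 3 resting-seen and 1 intermediate member of high level:
Hist1h2ap (cycling-tied H2A, chr13:21833026-21833049, minus strand): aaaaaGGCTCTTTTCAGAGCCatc
Hist1h2ae (cycling-tied H2A, chr13:23570663-23570688, minus strand): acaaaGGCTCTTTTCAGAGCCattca
Hist1h4d (cycling-tied H4, chr13:23581945-23581970, plus strand): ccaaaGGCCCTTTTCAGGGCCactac
Hist1h1c (resting-seen H1, chr13:23739507-23739532, plus strand): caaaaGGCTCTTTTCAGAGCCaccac
Hist3h2ba (resting-seen H2B, chr11:58949344-58949369, plus strand): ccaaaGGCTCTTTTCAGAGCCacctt
Hist3h2a (resting-seen H2A, chr11:58955167-58955192, plus strand): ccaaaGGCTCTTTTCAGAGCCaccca
Hist1h4h (intermediate H4, chr13:23531453-23531478, plus strand): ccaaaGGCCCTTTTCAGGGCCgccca

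The stem-loop itself did not separate the groups: it was found in 19 of 22 cycling-tied, 5 of 7 resting-seen and 13 of 13 intermediate members with an annotated 3′ UTR. Where it was found, the annotated 3′ UTR ran on past it for a median of 51.0 bases in cycling-tied members (3 to 4884), 377 in resting-seen (35.0 to 1643) and 385 in intermediate ones (28.0 to 2445). These ranges overlapped, and no test was made of them. More than 100 bases followed the stem-loop in 7 of 19 cycling-tied, 4 of 5 resting-seen and 10 of 13 intermediate members. The whole 3′ UTR had medians of 94.5, 742 and 430 bases. The polyadenylation signal AATAAA stood in the last 50 bases of 2 of 22 cycling-tied, 4 of 7 resting-seen and 5 of 13 intermediate members. Among cycling-tied members the annotated transcript stopped 3 bases past the stem-loop in Hist1h2ap and 4884 bases past it in Hist1h1d. In the resting-seen Hist1h2bc the annotated 3′ UTR of 742 bases held no such stem-loop. For 8 cycling-tied members, the linker histone gene Hist1h1b among them, no 3′ UTR is annotated.

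Promoters were compared over the 250 bases before and 50 after the RefSeq start, in build GRCm38.p6, for the 63 members with an entry in the table. The CCAAT box stood on either strand in 54 of them (85.7%), against 37.4% of all 32851 promoters in the table, and TATAAA in 35 (55.6%) against 13.6%. The octamer-factor site ATTTGCAT stood in 15 members (23.8%) against 1.74% of all promoters. It stood in 7 of 18 H2A and 8 of 17 H2B promoters and in none of the other types. These promoters are not all separate. Both identifiers of Hist2h2bb have the same promoter, whose octamer is counted for each. Some H2A and H2B genes, such as Hist1h2ae and Hist1h2bg, start in opposite directions from overlapping stretches, so 1 site can count for both types. CCAAT stood in every H1, H2A, H2B and H3 promoter and in 3 of 12 of H4. Between the groups CCAAT was in 29 of 30 cycling-tied and 5 of 5 resting-seen promoters and TATAAA in 17 of 30 and 2 of 5, so these letters were common to both. The 100 bases before the start are shown for a cycling-tied and a resting-seen gene, with both motifs in capitals on either strand:
Hist1h1b (cycling-tied H1, chr13:21780626-21780725, minus strand): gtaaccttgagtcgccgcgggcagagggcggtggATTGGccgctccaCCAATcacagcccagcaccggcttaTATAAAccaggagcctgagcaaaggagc
Hist3h2ba (resting-seen H2B, chr11:58948811-58948910, plus strand): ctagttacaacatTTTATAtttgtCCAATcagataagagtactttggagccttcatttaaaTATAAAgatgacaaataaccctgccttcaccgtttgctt

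In cycling glioma cells the 69 members together held 22.5 and 55.7 UMIs per 10,000, against 9.98 and 14.0 in non-cycling glioma cells. The make-up of this sum changed with the cell's state. Cycling-tied members gave 70.6% and 72.4% of the member UMIs in cycling cells and 9.54% and 28.0% in non-cycling ones, where resting-seen members gave 77.6% and 53.4%. By type, H2A genes held most of the member UMIs in cycling cells (62.7% and 56.3%), while H2B genes held the most of any type in non-cycling cells (55.4% and 38.9%). The summed level in cycling cells over that in non-cycling cells was 6.96 and 8.64 for H2A, 3.41 and 6.97 for H3, 2.31 and 3.24 for H1, 1.50 and 3.62 for H4, and 0.579 and 1.21 for H2B. H2B as a type was thus lower in cycling than in non-cycling glioma cells of tumour 1 and slightly higher in tumour 2.

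**Figure D1:**
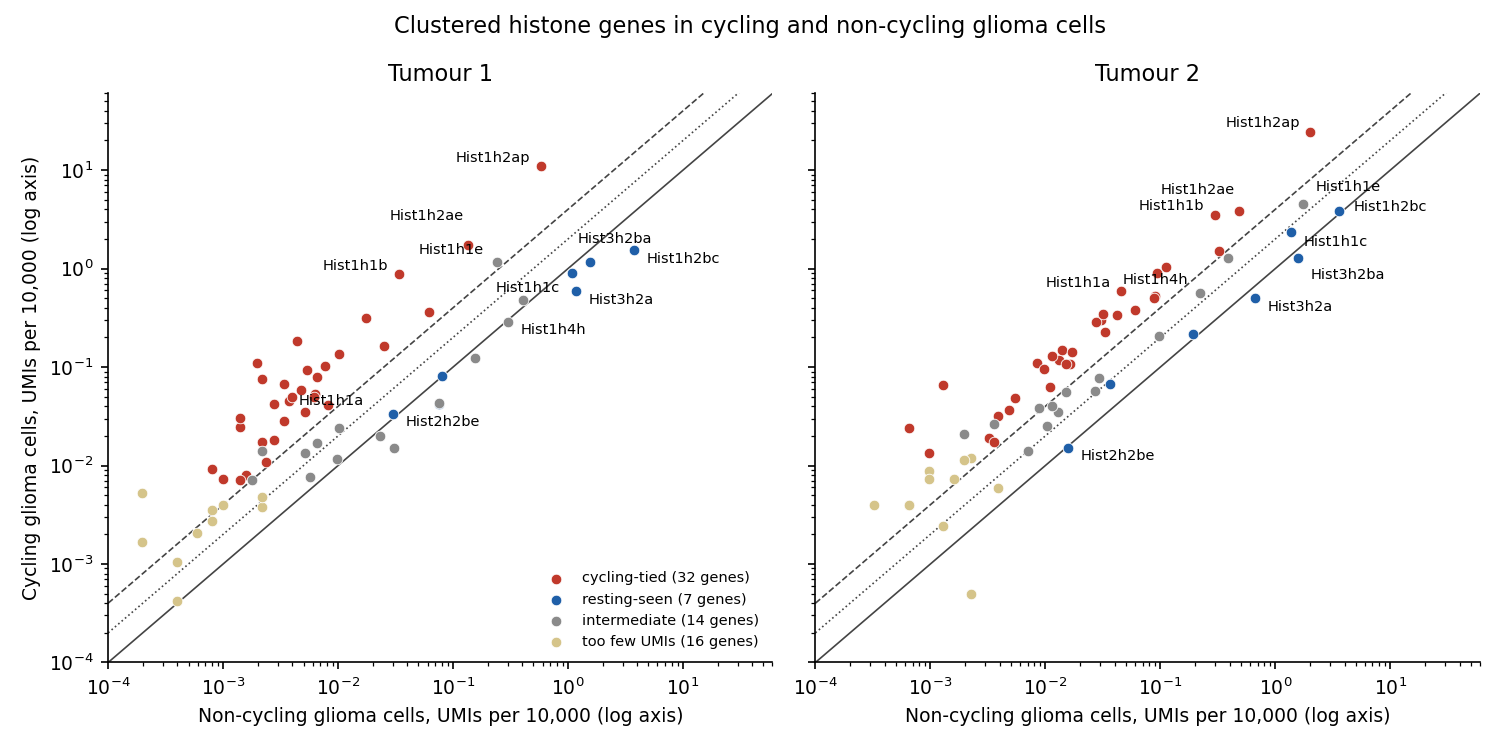
Level of each clustered histone gene in non-cycling glioma cells (horizontal) against cycling glioma cells (vertical), in UMIs per 10,000 on log axes, with 1 panel per tumour and 1 point per gene; genes at 0 in either state are not drawn. The solid line marks equal levels, the dotted line a ratio of 2 and the dashed line a ratio of 4. The 32 cycling-tied genes lie above the dashed line in both panels, and the 7 resting-seen genes lie below the dotted line in both panels.

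Among the linker histones, Hist1h1b, Hist1h1d and Hist1h1a were cycling-tied, Hist1h1e was intermediate and Hist1h1c resting-seen. Hist1h1b stood at 0.883 and 3.54 in cycling glioma cells and at 0.0337 and 0.296 in non-cycling ones, with ratios between 22.5 and 30.7 and between 11.2 and 12.8 by their intervals. Hist1h1a was low in tumour 1 (0.0673 in cycling cells) and higher in tumour 2 (0.594). Hist1h1e, a linker histone found widely in dividing and resting cells, had 1.17 and 4.56 in cycling cells and 0.239 and 1.75 in non-cycling ones. Its ratios of 4.87 [4.57 to 5.18] and 2.61 [2.53 to 2.70] lay on different sides of 4, and its annotation overlaps Hist1h2be on the same strand, so reads could not be told apart there. Hist1h1c, known as a linker histone that resting and differentiated cells keep, stood at 0.895 and 2.36 against 1.08 and 1.38. The testis gene Hist1h1t had too few UMIs to place.

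H2A supplied 10 of the cycling-tied members. Hist1h2ap was at 11.0 and 24.6 in cycling glioma cells and at 0.578 and 2.02 in non-cycling ones, ratios of 19.1 [18.4 to 19.8] and 12.2 [11.9 to 12.5]. Every window of 90 bases in the last 300 bases of its transcript is shared with other H2A genes, so reads from there cannot be told apart. Whether such reads were counted for 1 gene or left out was not examined, so its level may be off in either direction. Hist1h2ae, of which 7.11% of windows are shared, had 1.72 and 3.88 against 0.135 and 0.486, ratios of 12.8 and 7.99. Hist1h2ab had 0.313 and 1.04 against 0.0174 and 0.112. Over the cycling-tied members with an annotated transcript, 15 of 30 shared more than 50% of these windows with another gene, against 1 of 7 resting-seen members.

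H2A also gave 2 resting-seen members, and both lie outside the Hist1 cluster. Hist3h2a stood at 0.589 and 0.502 in cycling glioma cells against 1.18 and 0.664 in non-cycling ones, ratios of 0.497 and 0.757, and its annotation overlaps Trim17 on the same strand. Hist2h2aa1 stood at 0.0815 and 0.219 against 0.0797 and 0.191. Its copy Hist2h2aa2, at 0 in glioma cells, has the same transcript end, so reads from there cannot be told apart.

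H2B was the type most divided between the groups, with 8 cycling-tied and 3 resting-seen members. Hist1h2bc stood at 1.53 and 3.87 in cycling glioma cells and at 3.74 and 3.59 in non-cycling ones. Its ratio was 0.408 [0.397 to 0.419] in tumour 1 and 1.08 [1.05 to 1.11] in tumour 2. The level in non-cycling cells was thus alike in the tumours, and that in cycling cells was lower in tumour 1. Hist3h2ba had 1.18 and 1.28 against 1.56 and 1.59, ratios of 0.756 and 0.803. Hist2h2be had 0.0335 and 0.0152 against 0.0301 and 0.0158. Among the cycling-tied H2B genes, Hist1h2bj had 0.0798 and 0.337 against 0.00654 and 0.0423.

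Of the 12 genes for H3, 8 were cycling-tied, and these included the member with the highest ratio in tumour 1. Hist1h3b had ratios of 55.9 and 10.9, on levels of 0.111 and 0.346 in cycling cells. Hist1h3c had 0.184 and 0.904 against 0.00436 and 0.0940. Only Hist2h3c2, at 0.0423 and 0.0677 against 0.0753 and 0.0368, was resting-seen.

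H4 differed from the other types in that 7 of its 13 genes were intermediate, 3 were cycling-tied and 0 resting-seen. The cycling-tied Hist1h4d had 0.360 and 1.52 against 0.0620 and 0.324. The intermediate Hist1h4i had 0.482 and 1.27 against 0.404 and 0.389, and Hist1h4h 0.287 and 0.568 against 0.301 and 0.223. For both, cycling and non-cycling levels were close in tumour 1 and apart in tumour 2 (ratios of 1.20 and 3.27, and of 0.952 and 2.55).

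Near the limits the groups shade into each other. Just inside the cycling-tied group were Hist1h2bp (4.56 and 7.50) and Hist1h4d (5.80 and 4.70), and just outside were Hist1h4b (3.97 and 10.9) and Hist1h2bf (2.61 and 4.45). Just inside the resting-seen group were Hist2h3c2 (0.562 and 1.84) and Hist1h1c (0.832 and 1.71), and just outside were Hist4h4 (1.20 and 2.00) and Hist1h2be (0.788 and 2.10). The median ratio was 12.2 and 8.89 for cycling-tied, 0.756 and 1.08 for resting-seen and 1.27 and 2.67 for intermediate members. Of the 16 members too low to place, Hist1h2ba, Hist1h2bq and Hist1h2br had 0 UMIs in all gated cells of both tumours. Hist1h2aa and Hist2h2aa2 had 0 in cycling glioma cells. The share of windows at the transcript end found in other genes was 100% for Hist1h2bq and Hist2h2aa2. It was 68.4% for Hist1h2br, 41.7% for Hist1h2ba and 0% for Hist1h2aa. Whether reads from shared ends were left out was not examined, so a count of 0 there need not mean absent message.

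Among cycling glioma cells the member UMIs were unevenly spread. The median cell had 12.1 and 22.4 member UMIs per 10,000, while 14.7% and 34.5% of cycling glioma cells (216 and 239 cells) were above 50. These cells held 45.2% and 81.3% of all member UMIs of their class. Their S-phase genes averaged 38.5 and 31.2 UMIs per 10,000 against 23.8 and 13.7 in the other cycling glioma cells, and their G2 and M genes 62.5 and 59.7 against 48.2 and 50.8. In tumour 1 their median totals were close to those of the others (28072 against 28676 UMIs), and in tumour 2 above them (28549 against 23218). In non-cycling glioma cells 0.106% and 0.529% were above 50.

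The cycling-tied group, chosen in glioma cells, was also higher in cycling cells of other classes. Its summed level was 15.8 and 40.3 in cycling glioma cells against 0.952 and 3.92 in non-cycling ones, ratios of 16.6 [16.2 to 17.1] and 10.3 [10.1 to 10.5]. T cells had 15.2 and 49.5 against 2.43 and 8.33, ratios of 6.28 and 5.94, and TAMs 4.57 and 25.1 against 0.741 and 3.00, ratios of 6.17 and 8.36. Single members were followed in T cells where they had enough UMIs. A ratio of at least 4 was met by 8 of 12 cycling-tied members in tumour 1 and by 12 of 30 in tumour 2. The lowest ratios among these members were 1.11 and 1.20, and the share of all genes reaching 4 was not counted. Hist1h1b stood at 1.53 and 9.16 in cycling T cells and at 0.142 and 0.835 in non-cycling ones. No test was made of these ratios, because the same gate divides the cells in every class.

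Non-cycling T cells held more S-phase and G2 and M message than non-cycling glioma cells, with median S-phase sums of 4.85 and 6.13 UMIs per 10,000 against 3.87 and 4.21, and G2 and M sums of 2.49 and 5.18 against 1.91 and 2.84. The part of these in the level of cycling-tied members in non-cycling T cells was not tested. EGFP, the label of the electroporated cells, had medians of 7.92 and 12.4 UMIs per 10,000 in non-cycling T cells and of 5.30 and 5.85 in non-cycling TAMs, against 80.6 and 96.4 in non-cycling glioma cells.

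The resting-seen group was counted in every class. Among non-cycling classes its summed level was highest in oligodendrocytes, at 12.4 and 13.1, followed by non-cycling glioma cells at 7.75 and 7.47. Non-cycling T cells had 3.69 and 3.24 and non-cycling TAMs 2.86 and 2.24. Vascular cells, the fewest and unlike in make-up between the tumours, had 7.61 and 4.06. The oligodendrocyte gate set no upper limit on EGFP, whose median there was 35.2 and 26.8, above the limit of 25 for glioma cells. The class therefore holds EGFP-labelled cells and is not one of host cells alone. Within the group the classes were not alike from gene to gene. Hist1h2bc reached 6.61 and 5.28 in oligodendrocytes, 1.69 and 0.971 in non-cycling TAMs and 1.14 and 0.861 in non-cycling T cells. Hist1h1c stood at 2.70 and 4.12 in oligodendrocytes and at 1.75 and 1.66 in non-cycling T cells, both above the 1.08 and 1.38 of non-cycling glioma cells. Hist3h2ba was at 1.56 and 2.34 in oligodendrocytes and at 1.56 and 1.59 in non-cycling glioma cells, and was under 0.5 in both tumours in the remaining non-cycling classes: 0.416 and 0.360 in T cells, 0.177 and 0.126 in TAMs and 0.166 and 0.179 in vascular cells.

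**Figure D2:**
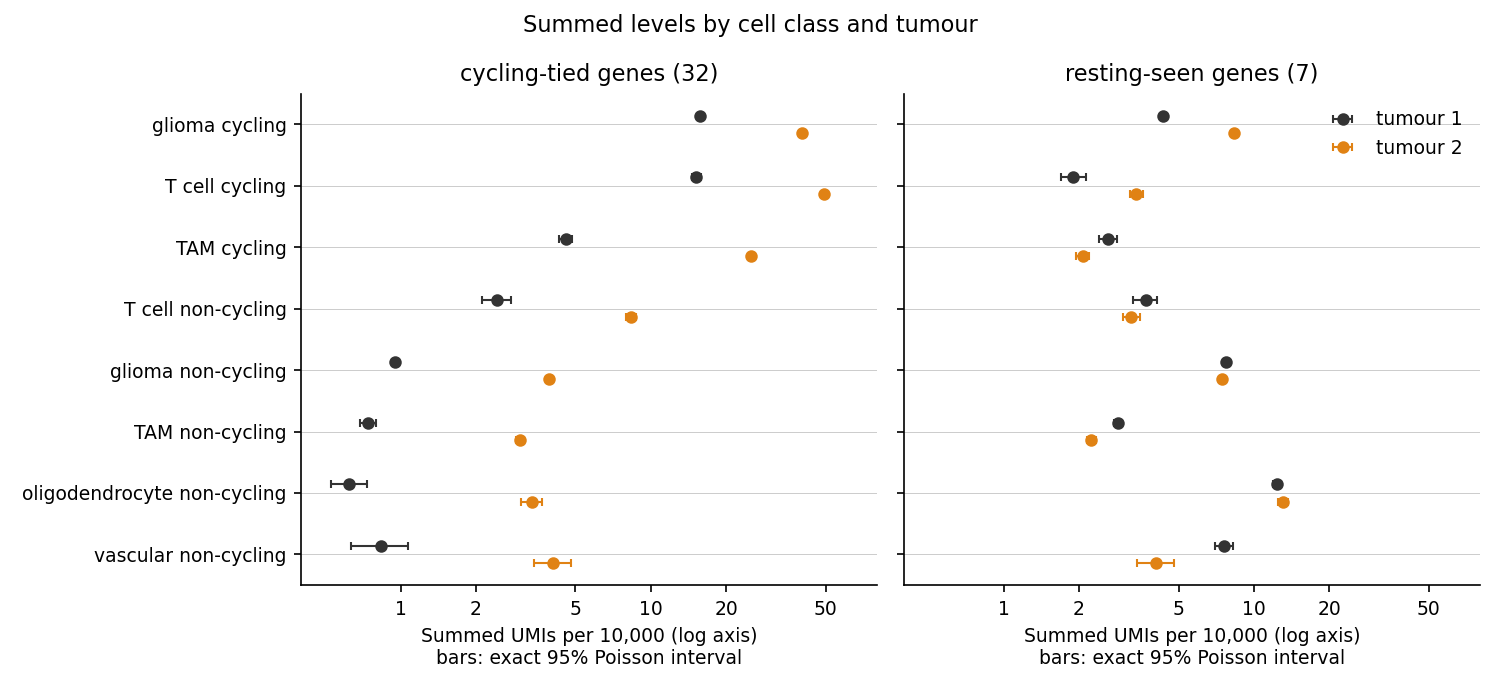
Summed level of the cycling-tied members and of the resting-seen members (UMIs per 10,000) in each gated class of tumour 1 and tumour 2, on a log axis, with exact 95% Poisson intervals for counting error. Within each tumour, cycling-tied sums are higher in cycling glioma cells, T cells and TAMs than in every non-cycling class, while resting-seen sums are highest in oligodendrocytes (12.4 and 13.1).

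Cycling-tied members stood higher in tumour 2 in every class. Their summed level in tumour 2 was 2.54 times that in tumour 1 in cycling glioma cells, 4.11 times in non-cycling glioma cells, 3.25 and 3.43 times in cycling and non-cycling T cells, 5.49 and 4.05 times in cycling and non-cycling TAMs, 5.36 times in oligodendrocytes and 4.88 times in vascular cells. In tumour 2 non-cycling sums were 3.92 in glioma cells, 3.00 in TAMs, 3.34 in oligodendrocytes, 4.06 in vascular cells and 8.33 in T cells. Some classes were unlike in make-up between the tumours. Endothelial and mural markers summed to 94.4 and 33.7 in non-cycling vascular cells of tumour 1, and to 32.0 and 73.3 in those of tumour 2. Monocyte markers summed to 1.97 and 15.4 in non-cycling TAMs. The part of this make-up, and of free RNA in the suspension, in these sums was not tested. In cycling glioma cells 31 of the 32 cycling-tied members were higher in tumour 2, with the share over all genes not counted. Hist1h1a was 8.83 times higher, Hist2h2bb 6.64 times and Hist2h2ac 5.13 times, and Hist1h2af was the exception at 0.875 times. The resting-seen group differed between the tumours by class and state. Its summed level in tumour 2 was 1.91 [1.87 to 1.95] times that in tumour 1 in cycling glioma cells and 1.79 [1.57 to 2.04] times in cycling T cells, but 0.791 [0.716 to 0.875] times in cycling TAMs. In non-cycling glioma cells it was 0.965 [0.949 to 0.980] times. By members, 5 of 7 were higher in tumour 2 in cycling glioma cells (median 1.60 times, with Hist2h2be at 0.454 times), 5 of 5 in cycling T cells and 3 of 7 in non-cycling glioma cells (median 0.961 times). These are values of 1 library beside 1 library, so no test was made.

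The proportion between members also differed by class, as 1 pair chosen after its values were seen shows. Hist1h2ap had 12.5 [12.1 to 12.9] and 6.96 [6.79 to 7.13] UMIs per UMI of Hist1h1b in cycling glioma cells. In cycling T cells this was 5.68 [4.94 to 6.55] and 2.99 [2.87 to 3.11], and in cycling TAMs 6.15 [4.97 to 7.69] and 3.88 [3.70 to 4.06]. Both immune classes thus had relatively more of the linker histone than glioma cells when cycling. Non-cycling TAMs had 13.5 [9.26 to 20.5] and 7.85 [6.85 to 9.03], above cycling TAMs and overlapping cycling glioma cells in both tumours. Non-cycling T cells had 7.62 [4.25 to 14.8] and 4.47 [3.77 to 5.35]. Non-cycling glioma cells had 17.2 [14.7 to 20.1] and 6.81 [6.36 to 7.31], so the proportion went with state as well as class. The part of free RNA in the suspension in these values was not tested.

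Position within the cycle was taken from S-phase genes against G2 and M genes, lists that hold no histone gene. Cycling cells of each class and tumour were divided into 3 bins of equal size, from S-leaning through middle to G2/M-leaning. In glioma cells the cycling-tied members peaked in the middle bin. Their summed level was 8.98, 25.6 and 12.8 over the bins of tumour 1 and 36.1, 65.7 and 18.8 over those of tumour 2. Of the 32, 29 (90.6%) were highest in the middle bin in both tumours, a pattern that 8.67% of the 12723 genes with enough UMIs had. Hist1h1b followed it at 0.578, 1.44 and 0.626, and at 3.19, 6.10 and 1.31. Hist1h2ap did so at 6.46, 18.2 and 8.32, and at 21.5, 40.8 and 11.4. The outer bins were not in the same order in the tumours: G2/M-leaning cells had more than S-leaning cells in tumour 1 and less in tumour 2. The resting-seen sum had a flatter course that was highest at the G2/M end, at 3.55, 4.46 and 5.02 and at 6.73, 8.87 and 9.20. By member, 3 of the 7 were highest in the G2/M-leaning bin in both tumours, as were 16.6% of the 12723 genes. Of the others, 1 was highest in the middle bin in both tumours and 3 differed between the tumours.

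T cells, with 28 to 51 cells per bin, showed less of a course. The cycling-tied sum was 9.89, 18.3 and 16.6 in tumour 1 and 45.1, 57.2 and 45.1 in tumour 2. Of the 12 members with enough UMIs, 2 were highest in the middle bin in both tumours, against 13.7% of 6124 genes. Whether glioma and T cells differ in this was not tested.

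The outer bins were compared over all genes with edgeR's quasi-likelihood test, with the tumour as a block and adjustment by Benjamini-Hochberg over all genes. The middle bin was left out, so this test cannot show a peak there. Nor can it call a difference whose direction is opposite in the tumours, as for the cycling-tied sum in glioma cells. With 2 tumours and the block, the p-values here and below rest on how far differences between bins or classes varied between 2 animals. That spread was pooled over the classes of each fit. In glioma cells 0 of the 50 members that passed the filter on low counts differed at an adjusted p of 0.05, against 2.55% of all genes tested (0.638% higher and 1.91% lower in S-leaning cells), and 4 had an unadjusted p under 0.05. The median log2 fold, S-leaning over G2/M-leaning, was -0.11 over these members and 0.02 over all genes. Hist1h2bc had -0.71 with an adjusted p of 0.0572 by edgeR and Hist1h1c -0.92 with 0.0596, so neither passed. In T cells 0 of 50 passed, against 0.199% of all genes (0.0319% higher and 0.168% lower), and 1 had an unadjusted p under 0.05. DESeq2 also called 0 in both.

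**Figure D3:**
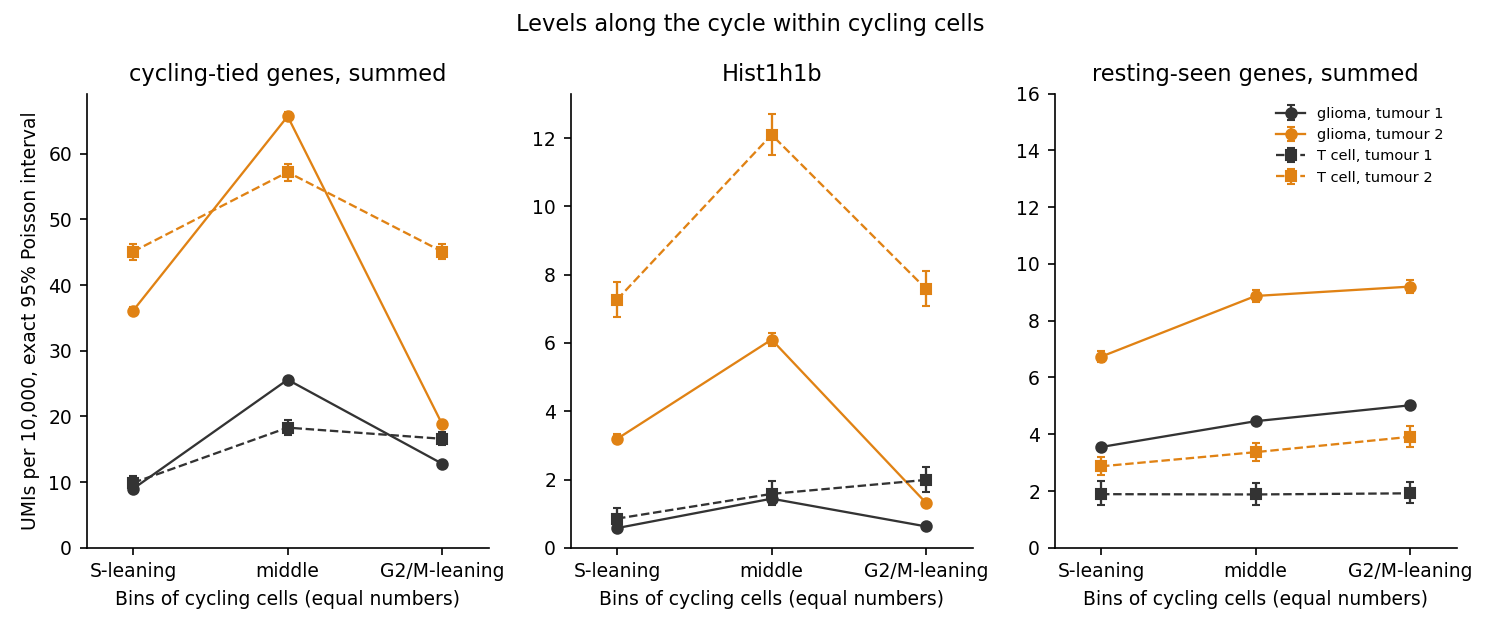
Level (UMIs per 10,000) of the summed cycling-tied members, of Hist1h1b and of the summed resting-seen members over the S-leaning, middle and G2/M-leaning bins of cycling glioma cells and cycling T cells, with 1 line per tumour and bars for exact 95% Poisson intervals of counting error. In glioma cells of both tumours the cycling-tied sum (25.6 and 65.7) and Hist1h1b (1.44 and 6.10) are highest in the middle bin.

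Cell classes in the same state were compared with the same test on counts summed per tumour and class, for which 47 of the 69 members passed the filter. Fold changes are log2, on the scale set by TMM, which aligns the bulk of genes between sums. T cells and TAMs had other TMM factors than glioma cells: scaling by library totals alone, chosen after seeing the data, moved the median of all genes up by 0.72 against non-cycling T cells, 0.97 against TAMs, 0.16 against oligodendrocytes and 0.60 against cycling T cells. All folds below are to be read against that shift. Because the levels of cycling and non-cycling glioma cells made the groups of members, calls against other classes are not divided by group, and nothing is read from the colours of the groups in the plot of folds.

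Against non-cycling T cells, 2 members were higher and 23 lower in non-cycling glioma cells. Over all genes 39.8% were called, 17.6% higher and 22.3% lower. The median log2 fold of the tested members was -1.79, against -0.03 over all genes. On library totals alone 4 were higher and 16 lower. The count of 23 lower members was 14 when resting cells were also held below the median of S-phase UMIs, and 2 without the tumour block, where the calls of Hist1h1b, Hist1h1e, Hist1h2ap and Hist1h2ac below were lost. Among the linker histones, Hist1h1d stood at 0.0101 and 0.0607 in glioma cells and at 0.274 and 0.329 in T cells, a log2 fold of -4.11 (SE 0.52, adjusted p = 5.69e-05 by edgeR). Hist1h1e stood at 0.239 and 1.75 against 0.843 and 3.22, -2.02 (SE 0.26). Hist1h1b stood at 0.0337 and 0.296 against 0.142 and 0.835, -2.43 (SE 0.33). T cells had the higher level in both tumours for each of the 3. Of the H2A genes, Hist1h2ap was lower by the same measure at -1.61 (SE 0.26, edgeR adjusted p = 3.90e-04), on 0.578 and 2.02 against 1.08 and 3.73, and Hist1h2ac at -3.28 (SE 0.52) on few UMIs.

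The pair that was higher in glioma cells came from the Hist3 locus. Hist3h2ba stood at 1.56 and 1.59 in non-cycling glioma cells and at 0.416 and 0.360 in T cells, a log2 fold of 1.32 (SE 0.29, adjusted p = 0.00334 by edgeR). Hist3h2a stood at 1.18 and 0.664 against 0.219 and 0.271, 1.11 (SE 0.26, adjusted p = 0.00458 by edgeR). With 2 tumours per class, the levels of the classes did not overlap for either gene. The share of all genes without overlap was not counted. The pair was called higher in cycling glioma cells against cycling T cells too, with folds of 1.85 (SE 0.29) and 1.26 (SE 0.26), and against non-cycling TAMs with 2.41 (SE 0.28) and 0.97 (SE 0.23). In all 3 comparisons both genes stayed higher, and called, when scaled by library totals alone.

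Against non-cycling TAMs few members differed: 2 were higher and 2 lower in glioma cells, where 55.2% of all genes were called, 25.8% higher and 29.4% lower. The median log2 fold was -0.31 over the tested members and -0.08 over all genes. Both lower calls hung on the scaling. Hist1h2ap was called lower by -0.64 (SE 0.25, adjusted p = 0.0460 by edgeR), although its level per 10,000 UMIs was higher in glioma cells of both tumours, at 0.578 and 2.02 against 0.442 and 1.66. Hist2h2ac was called at -1.31 (SE 0.45) on levels of 0.00773 and 0.0895 against 0.0203 and 0.0767, which order the classes differently in the tumours. On library totals alone 15 members were higher and 0 lower, 24 members turned direction and the lower calls were lost.

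Against oligodendrocytes 0 members were higher and 3 lower in non-cycling glioma cells, with 14.2% of all genes called, 6.17% higher and 8.01% lower. The median oligodendrocyte of each tumour was above the EGFP limit for glioma cells. By edgeR 6 tested members had an unadjusted p under 0.05. The median log2 fold was -0.09 over the tested members and 0.02 over all genes. Hist1h1c stood at 1.08 and 1.38 against 2.70 and 4.12, -1.61 (SE 0.30, adjusted p = 0.00317 by edgeR). Hist1h4h stood at 0.301 and 0.223 against 1.03 and 0.804, -1.97 (SE 0.38, adjusted p = 0.00371 by edgeR). Hist2h2aa1 stood at 0.0797 and 0.191 against 0.207 and 0.368, -1.29 (SE 0.36, adjusted p = 0.0303 by edgeR). Oligodendrocytes had the higher level in both tumours for all 3, and each call held on library totals alone. Without the tumour block 1 member was lower, and the call of Hist1h1c was lost. Hist1h2bc, at 3.74 and 3.59 against 6.61 and 5.28, was not among the calls.

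Cycling glioma cells against cycling T cells gave 2 higher and 14 lower members, with 45.5% of all genes called (24.5% higher and 21.0% lower), and on library totals alone 7 higher and 9 lower. The median log2 fold was -0.86 over the tested members and 0.09 over all genes. The count of 14 lower members was 28 with any Mki67 or Top2a UMI taken as cycling, and 3 without the tumour block, where the calls of Hist1h1b, Hist1h2bj and Hist1h2bk below were lost. Hist1h1b stood at 0.883 and 3.54 against 1.53 and 9.16, -1.64 (SE 0.28, adjusted p = 4.88e-04 by edgeR). The H3 gene Hist1h3a stood at 0.0350 and 0.108 against 0.240 and 0.381, -2.85 (SE 0.40, adjusted p = 1.38e-04 by edgeR). Of the H2A and H2B genes, Hist1h2ag was lower by -2.90 (SE 0.56), Hist1h2bj by -1.83 (SE 0.40) and Hist1h2bk by -2.80 (SE 0.60). These 5 kept their direction and their call on library totals alone.

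**Figure D4:**
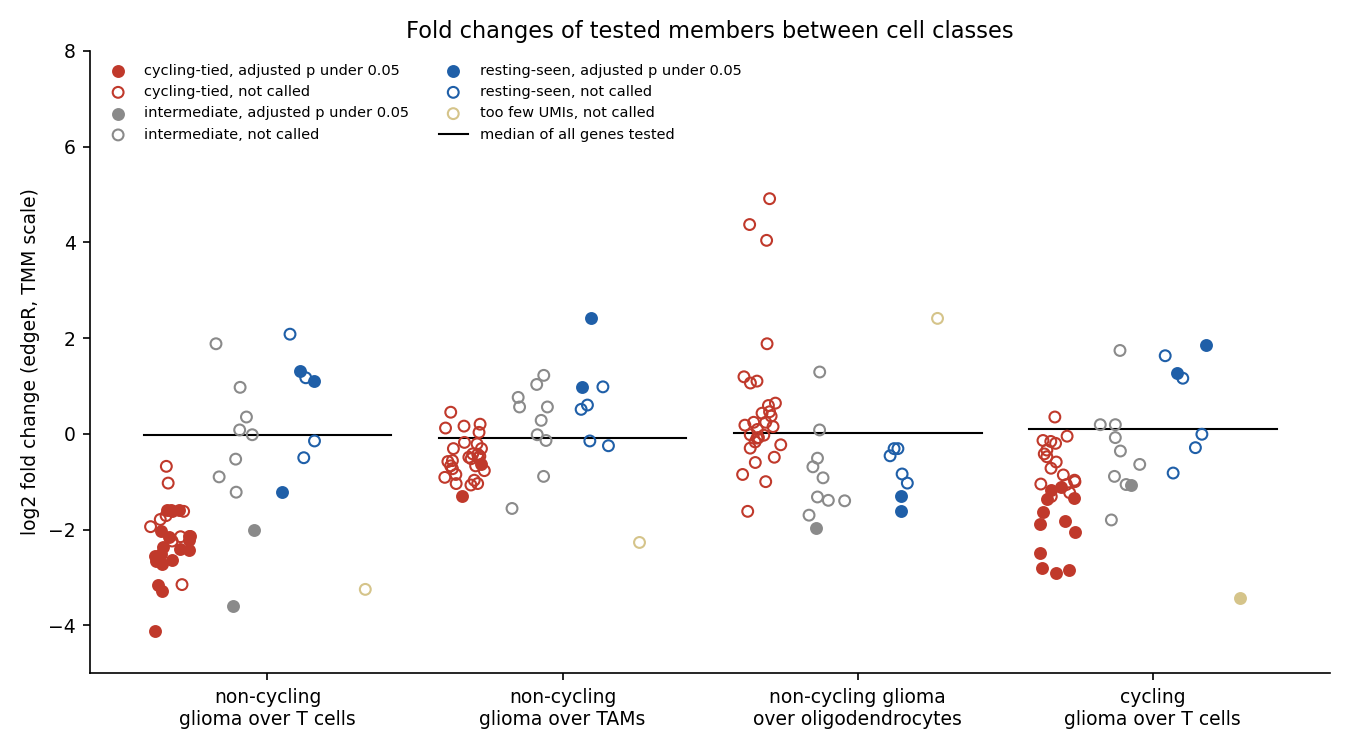
Log2 fold (TMM scale) of each of the 47 tested members in 4 comparisons of classes, glioma cells over the class named, coloured by group; filled points have an adjusted p under 0.05 by edgeR and black lines mark the median of all genes tested. The Hist3 genes Hist3h2ba and Hist3h2a lie above the line against T cells in both states, where 5 (non-cycling) and 11 (cycling) of the 47 members change direction on library totals alone. The highest points over oligodendrocytes are uncalled genes with 0 counts in oligodendrocytes of at least 1 tumour.

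Histone genes outside the clusters, which make variants used outside of replication, were more mixed. H3f3a and H3f3b, which encode the replacement histone H3, differed little between states, at 18.0 and 19.6 against 16.7 and 18.9 and at 23.3 and 28.7 against 16.2 and 23.3 in cycling and non-cycling glioma cells. H2afx, an H2A variant whose product marks broken DNA, had 2.95 and 3.59 against 0.467 and 0.483. Cenpa, the H3 variant of centromeres, had 2.93 and 3.29 against 0.141 and 0.222. In cycling glioma cells Cenpa stood at 0.297 and 0.402 in the S-leaning bin and at 7.05 and 6.93 in the G2/M-leaning bin, a log2 fold of -4.41 (SE 0.21, adjusted p = 1.29e-06 by edgeR). H2afx had a fold of -2.05 (SE 0.27). In all, 4 of the 11 variants tested were lower in the S-leaning bin and 0 higher, against 1.91% and 0.638% of all genes. Against non-cycling T cells 1 of 11 was higher and 5 lower in glioma cells, where 17.6% and 22.3% of all genes were. Against cycling T cells 3 were higher and 3 lower, near the 24.5% and 21.0% of all genes. H2afy2, a macro-H2A gene, was higher against T cells in both states, by 1.99 (SE 0.44) and 3.97 (SE 0.45). The linker variant gene H1fx was higher against cycling T cells by 2.87 (SE 0.40).

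Genes for the transcription and processing of stem-loop messages were read from the same fits. Slbp had 1.51 and 1.03 UMIs per 10,000 in cycling glioma cells and 0.463 and 0.359 in non-cycling ones. It was the only processing gene of 15 called between the outer bins of glioma cells, at 1.71 and 1.42 in the S-leaning bin against 0.900 and 0.546, a log2 fold of 1.06 (SE 0.20, adjusted p = 0.00937 by edgeR). Against T cells Slbp was lower in glioma cells in both states, by -1.61 (SE 0.20) in non-cycling and -1.13 (SE 0.19) in cycling cells. Casp8ap2, which takes part in cutting the message, was lower at -1.20 (SE 0.26) and -1.11 (SE 0.24). In all, 7 of 15 processing genes were lower and 0 higher against non-cycling T cells, and 5 lower and 1 higher against cycling ones, where 22.3% and 21.0% of all genes were lower. Oligodendrocytes exceeded glioma cells in Npat, a coactivator of histone transcription, by a fold of -1.30 (SE 0.29).

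Histone chaperones, which hand histones to DNA, moved both ways along the cycle. Between the outer bins of glioma cells 3 of 15 were higher in the S-leaning bin and 2 lower, against 0.638% and 1.91% of all genes. Chaf1b, a subunit of the assembly factor that works behind the replication fork, was higher at 0.500 and 0.653 against 0.122 and 0.120, a fold of 2.18 (SE 0.23). Chaf1b and Mcm2, the latter higher by 1.36 (SE 0.20), are also in the S-phase list that set the bins. The direction of these genes therefore followed from the bins. Hjurp, which places Cenpa at centromeres, was lower by -1.06 (SE 0.18). Against non-cycling T cells 4 of 15 chaperones were lower and 0 higher in glioma cells, and against cycling T cells again 4 and 0, with Asf1b at -2.15 (SE 0.58) and -1.63 (SE 0.39). These counts are near the 22.3% and 21.0% of all genes that were lower. The S-phase list itself had 19 of 35 genes lower and the G2 and M list 15 of 36 lower in non-cycling glioma cells than in non-cycling T cells, with 0 higher in either.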

How the data were processed

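Per the labels and the study's methods, the authors aligned reads of both 10x 3′ libraries to mm10 (GRCm38) with Cell Ranger 4.0.0 and deposited raw UMI counts per gene and barcode, without normalization. Seurat is also named, and none of its output was used. The deposited counts held 14302 and 18596 barcodes with 282961884 and 295366782 UMIs of mouse genes, and 38 barcode sequences occurred in both libraries. Barcodes with under 500 genes, 20% or more mitochondrial or 5% or more haemoglobin UMIs were left out. Scrublet's own threshold marked 0 barcodes in each, which counts as failed, and cells with top scores were instead dropped at a rate of 0.8% for every 1000 barcodes (11.4% and 14.9%), leaving 11380 and 13200 cells with median totals of 18082.5 and 13069.0 UMIs.

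Gates were set per 10,000 UMIs on cells of at least 3000 UMIs (EGFP 25, T cell 5, TAM 50, oligodendrocyte 20, vascular 10), with upper limits on the other classes' markers. Levels are summed UMIs over summed totals, with exact Poisson intervals, and ratios have exact conditional intervals. Intervals cover counting error only. Counts were summed per tumour and class (16 sums of at least 20 cells) and tested in R 4.3.3 with edgeR 4.0.16 (filterByExpr, TMM, quasi-likelihood, Benjamini-Hochberg over 13365 genes, threshold 0.05), and for the cycle bins over 8 sums and 12536 genes. The tumour was a block, since all classes of a library come from 1 animal, and deviations of classes from their means correlated at 0.155 to 0.896 over 28 pairs of classes and 0.264 to 0.845 over 6 pairs of cycle bins. The fits were tested on simulated counts. Scanpy 1.11.5 and DESeq2 1.42.0 were also used.

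Named with values were the 12 members highest in cycling and the 8 highest in non-cycling glioma cells, up to 5 called members per direction and comparison, those nearest the ratio limits, those with the largest tumour difference, and up to 4 genes per related list and comparison. Some of these are given only in counts, and a few members were named for their type after their values were seen. The members, lists and gates were chosen with earlier results of these data known. Sequences are from the GENCODE annotation of GRCm38 and, for promoters, RefSeq. Alternatives covered scaling, filter, block, tool, doublets, mitochondrial limit, gates, weighting and leaving out a tumour.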

Additional observations from a re-analysis of the deposited data

How the results depend on the processing

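With any Mki67 or Top2a UMI taken as cycling, 21 members were cycling-tied (20 of them in common with the 32) and 13 resting-seen, and 28 members were lower in cycling glioma than cycling T cells against 14. From either tumour alone 35 to 37 members were cycling-tied and 7 to 15 resting-seen. The summed member level of vascular cells, 9.62, was 8.63 with the gate on counts thinned to 5000 UMIs per cell, 9.99 with doublets kept and 11.8 as a mean over cells. Without the replicate block 2 members were lower against non-cycling T cells, 0 against TAMs, 1 against oligodendrocytes and 3 against cycling T cells. Both Hist3 genes stayed called without it, and calls of Hist1h1b, Hist1h1e, Hist1h2ap and Hist1h1c were lost with no change of direction. Library totals alone, added after seeing the data like the thinned gate in tests, gave 4 members higher against non-cycling T cells, 15 higher and 0 lower against TAMs, and 7 higher and 9 lower against cycling T cells. With these totals 77.4%, 80.8%, 58.0% and 78.4% of all calls were higher in glioma cells, against 44.1%, 46.7%, 43.5% and 53.9% with TMM. Resting cells held also below the median of S-phase UMIs gave 14 lower against T cells, and 4 higher and 0 lower against TAMs. Of the 2 lower against TAMs, 1 was called with DESeq2 size factors, 1 with doublets kept, 0 with DESeq2 and 5 with the thinned gate. Between the outer cycle bins of glioma cells, no filter on low counts gave 2 higher (Hist1h3a, Hist1h1a) and 2 lower (Hist1h2bc, Hist1h1c), and keeping doublets 1 lower (Hist1h1c). Against TAMs Hist1h2ap turned to 0.33 on totals alone. With 1 tumour left, Hist1h2ap was 0.39 and 0.28 and Hist2h2ac -1.39 and 0.22, without tumour 2 and without tumour 1. These are plain log2 ratios of levels per 10,000 with no test, which drop TMM as well as a tumour, so the change of sign is not put down to either tumour. The causes of these changes were not tested.

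Members at or near 0 UMIs limit what can be placed, as do the 41 and 25 vascular cells, in which no member was tested. Reads from ends shared between genes cannot be told apart, and whether they were counted or left out was not examined. Stem-loop messages without poly(A) may be missed.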
